A study of Mus musculus with 3 samples.

Results

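The cytosolic ribosomal protein genes were followed in mouse CD4 T cells of memory phenotype, helper cells that carry the surface marks of past antigen contact, taken from spleen with a cell sorter. Members were taken by name from the platform annotation: every probe set annotated to a single gene whose symbol is that of a small-subunit (Rps), large-subunit (Rpl) or stalk (Rplp) protein, with a digit and at most a short ending such as a, x, l or l1, plus Rpsa. This gave 48 genes on 104 probe sets, out of 18193 genes named by a single-gene probe set. Each gene was represented by its brightest such probe set over the 3 arrays, and 45 of the 48 passed a filter on low values that left 10341 genes to test. Membership followed names and not measured differences, although the members were chosen with earlier results of these data known.

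The arrays held total RNA from BALB/c mice after 10 weeks on a high fat diet with 60 kcal% fat (HFD, 2 arrays) or on a normal diet (ND, 1 array). No other treatment or allele is given for either group, and every sample is the same sorted population. Whether each HFD array stands for its own mouse or for a pool is not in the labels, so the p-values cover the spread of these arrays alone, and that spread may be technical. The comparison asked which of these transcripts differed between the diets.

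A cytosolic ribosome is built from a small 40S subunit, which reads the messenger RNA, and a large 60S subunit, which forms the peptide bond. Almost every ribosomal protein is present as a single copy in each ribosome, and the proteins are made in matched amounts. Their messenger RNAs are among the most abundant of any cell and mostly start with a run of pyrimidines, the TOP element (terminal oligopyrimidine), through which mTORC1 signalling sets their translation. T cells that enter growth make many more ribosomes, and this demands nucleolar assembly factors as well as the proteins themselves. The family has left many processed pseudogenes in the mouse genome, so that many array probe sets match several loci.

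The region around the start of transcription is shown for the 6 members with the largest called differences described below, because the pyrimidine run is the feature the family is known for. Sequences are from RefSeq on GRCm38.p6, run from 60 bases before to 20 bases after the annotated start, and carry the longest run of C and T from 30 bases before the start onwards in capitals. They lie at chr9:44407654-44407733 on the plus strand (Rps25), chr9:66946026-66946105 and chr9:66946353-66946432 on the plus strand (the upstream and downstream starts of Rps27l), chr17:46782637-46782716 on the minus strand (Rpl7l1), chr9:120571457-120571536 on the plus strand (Rpl14), chr3:90213629-90213708 on the minus strand (Rps27) and chr4:86857348-86857427 on the minus strand (Rps6).
Rps25: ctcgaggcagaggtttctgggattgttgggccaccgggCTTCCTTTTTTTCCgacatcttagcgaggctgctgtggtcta
Rps27l, upstream start: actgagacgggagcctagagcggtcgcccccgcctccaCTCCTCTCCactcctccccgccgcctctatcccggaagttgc
Rps27l, downstream start: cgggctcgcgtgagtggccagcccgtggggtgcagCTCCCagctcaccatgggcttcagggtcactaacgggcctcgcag
Rpl7l1: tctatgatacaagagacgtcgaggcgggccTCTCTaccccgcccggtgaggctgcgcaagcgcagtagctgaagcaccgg
Rpl14: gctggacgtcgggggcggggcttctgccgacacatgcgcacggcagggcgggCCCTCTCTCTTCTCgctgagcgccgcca
Rps27: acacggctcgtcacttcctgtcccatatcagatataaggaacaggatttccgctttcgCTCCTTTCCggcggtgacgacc
Rps6: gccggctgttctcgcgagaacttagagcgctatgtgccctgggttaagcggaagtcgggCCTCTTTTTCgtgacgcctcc

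The runs are 14 letters long in Rps25 and Rpl14, 10 in Rps6, 9 in Rps27 and at the upstream start of Rps27l, and 5 in Rpl7l1 and at the downstream start of Rps27l. Counted from the annotated start, they begin at -22 in Rps25, -22 and -25 at the upstream and downstream starts of Rps27l, and -30 in Rpl7l1. These end before the annotated start, while those of Rpl14, Rps27 and Rps6 begin at -8, -2 and -1 and cross it. At the upstream start of Rps27l a further run of 9, ctcctcccc, follows and is not in capitals. In Rpl7l1 the letters cc stand directly before the capitals, outside the bases searched, so its run is longer than the 5 given and begins before -30. Of the 48 genes, 42 matched the RefSeq promoter table, with 50 starts. A run of at least 8 C or T letters on the strand of the gene, within 30 bases on either side of the start, was found at 25 of the 50 starts (50%), against 22.9% of all 32851 starts in the table. Searched on both strands of a window from 250 bases before to 50 bases after the start, CCGGAAG, the core letters bound by ETS factors, was present at 20 of 50 starts (40%, against 8.86% of all). AAGATGG, part of the motif of the factor YY1, was present at 8 of 50 (16%, against 6.34%), and the 2 motifs can overlap by the letters AAG. These matches describe letters and not bound sites.

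Values are linear intensities, as deposited, and changes are differences of log2 values after 17.7, the 25th percentile of the data, was added to each intensity. Intensities of different probe sets do not rank the amounts of their transcripts. Array medians were 69.7 and 67.4 for HFD and 78.3 for ND, and the number of arrays limits the precision. Over all genes tested the median difference was -0.15, so changes are also given relative to it. The 8 measured T cell markers were present on all arrays, with sums of 74068 and 72216 for HFD and 89307 for ND, and 6 of the 8 were called lower in HFD. Cd4 itself read 609 and 377 in HFD, against 911 in ND. Sums over the 8 macrophage markers were 853 and 986 in HFD and 2173 in ND, and over the 5 measured dendritic cell markers 610 and 733 in HFD and 1523 in ND. Sums over 6 B cell markers were 1992 and 2157 in HFD and 442 in ND. Ms4a1 made most of that difference, was the only B cell marker called, and read 1612 and 1837 in HFD and 56.8 in ND. Cd79b read 190 and 168 in HFD and 219 in ND. Pax5 and Blk also read lower in HFD, while Cd79a and Cr2 read higher, all under the filter. Sums over 6 neutrophil markers were 600 and 690 in HFD and 176 in ND. S100a8 (247 and 362 in HFD, 40.9 in ND) and S100a9 (183 and 131 in HFD, 5.85 in ND) made most of that difference and were called higher. Ngp was not called (96.2 and 69.1 in HFD, 76.1 in ND), and Camp, Ltf and Mpo were under the filter. Cd8a and Cd8b1, which mark the other main class of T cells, summed to 581 and 715 in HFD and 449 in ND, with Cd8a called higher (1.88-fold, adjusted p = 0.012). Of 3 measured natural killer cell markers, Eomes was called higher (1.38-fold, adjusted p = 0.040). None of these markers was listed at 0. H2-Ea, a class II histocompatibility gene that BALB/c mice express and C57BL/6 mice do not, read 536 and 602 in HFD but 11.5 in ND although every array carries the same strain label. The ND array is the only one of its group, so no result can be given without it, and the part of other cells or of strain in the differences below was not tested. The 3 prime to 5 prime ratio of the control probe sets, a sign of RNA quality, was 1.27 and 1.34 in HFD and 1.29 in ND for Actb, and 0.681 and 0.706 in HFD and 0.723 in ND for Gapdh.

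Most ribosomal protein genes read slightly higher in HFD, with a small number of genes far from the rest. Of the 45 members tested, 23 rose and 2 fell at an adjusted p under 0.05 by limma's moderated test, with Benjamini-Hochberg adjustment over all 10341 genes, of which 20.5% were called higher and 29.2% lower. Both HFD arrays lay above the ND array for 39 of the 45 members (35.8% of all genes tested) and both lay below it for 3 (54.7% of all). The median difference of the 45 was 0.19, against -0.15 for all genes, 0.34 apart. The size of that shift rests on the scaling. Under quantile normalization, which forces the 3 arrays to one distribution, the median was 0.04 against -0.08 for all genes. There 25 members lay above ND on both HFD arrays and 11 below on both. Of the 45 members, 10 were called higher and 3 lower, against 22.3% and 26.0% of all genes. The share of members called higher was then near that of all genes. The 13 rises that were then no longer called, at 0.02 to 0.14, were those of Rps2, Rps3, Rps4x, Rps15, Rps18, Rps20, Rps28, Rpsa, Rpl4, Rpl6, Rpl7, Rpl22 and Rpl27. In RNA from a bulk of cells, more of a transcript per cell and more cells that carry it cannot be told apart.

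**Figure D1:**
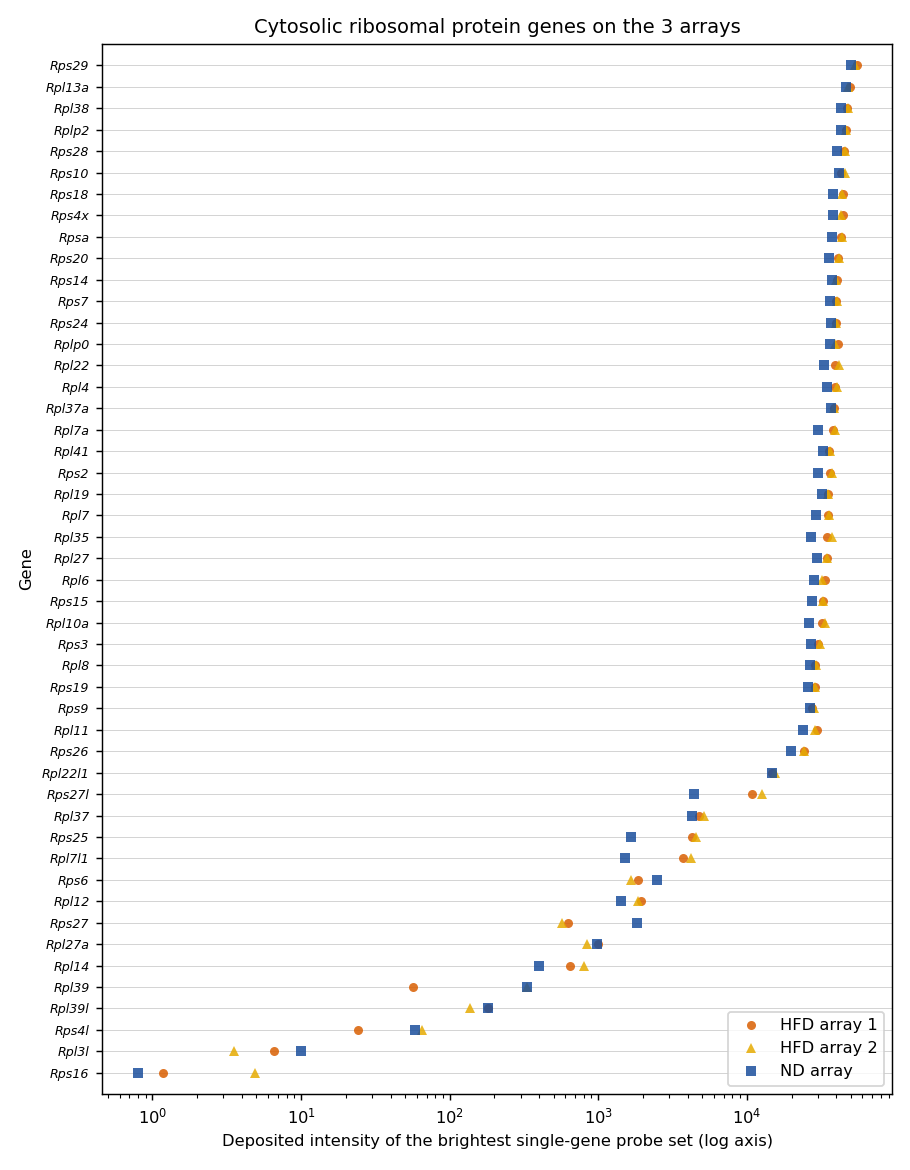
Deposited intensity (log axis) of the brightest single-gene probe set of each of the 48 ribosomal protein genes, with a circle and a triangle for the 2 HFD arrays and a square for the ND array. For 33 genes, all with a mean over 20000, the HFD points lie just right of the ND point, while Rps27l, Rps25, Rpl7l1, Rpl14 and Rps27 stand apart. Rps4l, Rpl3l and Rps16 did not pass the filter.

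The differences were small in size for most. Only 4 of 45 members lay at least 1.5-fold above ND in both HFD arrays, a share below the 12.7% of all genes, and 1 lay at least 1.5-fold below, against 14.9% of all. The 33 members with a mean intensity over 20000 all lay above ND on both HFD arrays, by 0.07 to 0.41 on the log2 scale with a median of 0.19, and 18 of them were called. The 56 other genes in the same intensity range had a median of 0.04, with 31 above ND on both HFD arrays, 22 below, 21 called higher and 10 lower. The HFD arrays differed from each other by a median of 0.03 for these 33 members and by 0.04 for the 56 other genes. Bright probe sets can lie near the upper limit of an array, which was not tested for these members. Some genes outside the family had larger differences in that range of mean intensity. Npm1, a nucleolar chaperone, read 36778 and 37306 in HFD against 16653 in ND. Eif5a, a translation factor, read 36553 and 38430 in HFD against 20304 in ND. The ND value of Npm1 lay below those of all 33 members, and that of Eif5a below all but Rps26 (19702). Whether members brighter than this in ND could read as large a rise was not tested.

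**Figure D2:**
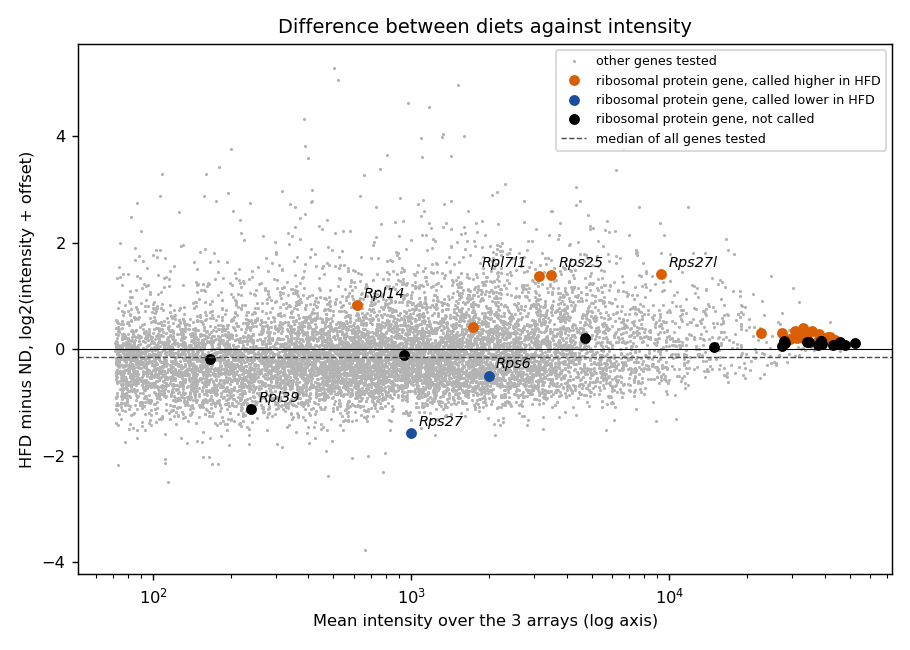
Difference between HFD and ND on the log2(intensity + offset) scale against the mean intensity over the 3 arrays (log axis) for all 10341 genes tested (grey) and the 45 ribosomal protein genes (coloured by call). The 33 brightest members form a tight cluster between 0.07 and 0.41, and the members further from 0 all have lower intensities.

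Among the 20 small-subunit genes tested, 11 rose (55%, against 20.5% of all genes) and 2 fell (10%, against 29.2%), with a median difference of 0.18. The 2 that fell, Rps27 and Rps6, were read on dim probe sets, and their brightest shared probe sets differed by -0.07 and 0.13. Rps2, a protein near the entry of the messenger RNA channel, read 36347 and 37225 in HFD, against 29913 in ND (1.23-fold, log2 0.30 ± 0.06 SE, adjusted p = 0.0017). Rps26, which contacts the messenger RNA at its exit and is mutated in some families with Diamond-Blackfan anaemia, read 24176 and 24185 in HFD and 19702 in ND (1.23-fold, adjusted p = 0.0033). For both genes the HFD arrays lay close together and above ND. Rps15, Rps18, Rpsa (which is also known as the laminin receptor), Rps20, Rps4x, Rps3 and Rps28 rose by 1.12-fold to 1.17-fold. Rpsa, for example, read 42926 and 43951 in HFD, against 37292 in ND (log2 0.22 ± 0.06, adjusted p = 0.0084), a difference of 0.09 under quantile normalization (adjusted p = 0.18).

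The other 7 bright small-subunit genes did not pass the test. Rps29 read 54701 and 53374 in HFD and 50026 in ND (log2 0.11 ± 0.06, adjusted p = 0.12), the highest intensity of any member. Rps9 read 27491 and 28165 in HFD and 26558 in ND (log2 0.07 ± 0.07, adjusted p = 0.42). Rps19, the gene most often mutated in Diamond-Blackfan anaemia, read 28712 and 28804 in HFD and 25764 in ND (log2 0.16 ± 0.07, adjusted p = 0.060). Rps7, Rps10, Rps14 and Rps24 had differences of 0.09 to 0.15. In each of these genes both HFD arrays lay above ND, by amounts too small for the fit to call.

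Among the 25 large-subunit genes tested, 12 rose (48%, against 20.5% of all genes), with a median of 0.20. By limma 0 fell, against 29.2% of all genes, and 0 also at an unadjusted p under 0.05. Rpl39 alone lay below ND on both HFD arrays, where 54.7% of all genes did. Rpl35, which sits beside the exit of the peptide tunnel, read 34708 and 37241 in HFD, against 27147 in ND (1.32-fold, log2 0.41 ± 0.07, adjusted p = 3.4e-04). Its 4 other bright probe sets gave log2 differences of 0.44 to 0.47. Rpl7a read 37835 and 38946 in HFD and 30248 in ND (1.27-fold, log2 0.34 ± 0.06, adjusted p = 6.2e-04). Rpl10a, a protein of the mobile L1 stalk, read 32164 and 33726 in HFD and 26134 in ND (1.26-fold, log2 0.33 ± 0.07, adjusted p = 0.0011). These were the 3 largest differences among the bright members, and in each the HFD arrays were clearly separate from ND.

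Rpl11, which with other free ribosomal proteins can bind and inhibit the p53 ligase Mdm2, read 29560 and 28736 in HFD and 23733 in ND (1.23-fold, log2 0.30 ± 0.07, adjusted p = 0.0026). Rpl22, an RNA-binding protein needed for the development of alpha-beta T cells in mice, read 39336 and 41656 in HFD and 33086 in ND (1.22-fold, log2 0.29 ± 0.06, adjusted p = 0.0023). A further probe set of Rpl22 gave 0.34 and a dimmer one -0.09. Rpl4, Rpl6, Rpl7 and Rpl27 rose 1.15-fold to 1.21-fold. Rpl8, Rpl13a, Rpl19, Rpl37, Rpl37a, Rpl38 and Rpl41 were not called, with differences of 0.07 to 0.22. Rpl38, which in mouse embryos is needed to translate a set of Hox messenger RNAs, read 47208 and 47697 in HFD and 43046 in ND (log2 0.14 ± 0.06, adjusted p = 0.059). Rpl37a, at 38480 and 38498 in HFD against 36591 in ND (log2 0.07 ± 0.06, adjusted p = 0.34), was among the members whose difference came nearest to the median of all genes.

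The stalk proteins, which recruit the GTPase translation factors to the large subunit, were represented by Rplp0 and Rplp2, while Rplp1 had no single-gene probe set. Rplp0 read 41050 and 39097 in HFD and 36016 in ND (log2 0.15 ± 0.06, adjusted p = 0.057). Rplp2 read 46414 and 46170 in HFD and 43124 in ND (log2 0.10 ± 0.06, adjusted p = 0.16). Neither was called, and both had HFD arrays above ND.

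The largest rises belonged to 2 paralogs and a pair of dim probe sets. Rps27l, a close relative of Rps27 that is induced by p53, read 10900 and 12686 in HFD, against 4414 in ND (2.66-fold, log2 1.41 ± 0.10, adjusted p = 3.2e-07). Its 3 probe sets gave 1.40 to 1.41. Rpl7l1, a relative of Rpl7 found in large subunits under assembly, read 3706 and 4178 in HFD, against 1505 in ND (2.60-fold, log2 1.38 ± 0.12, adjusted p = 1.5e-06), and its 3 probe sets gave 1.28 to 1.38. Both genes thus changed by similar amounts on every probe set past the filter, and their HFD arrays were far from ND. The canonical Rpl7 read 35158 and 35543 in HFD, against 29208 in ND (1.21-fold, log2 0.28 ± 0.06, adjusted p = 0.0029).

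**Figure D3:**
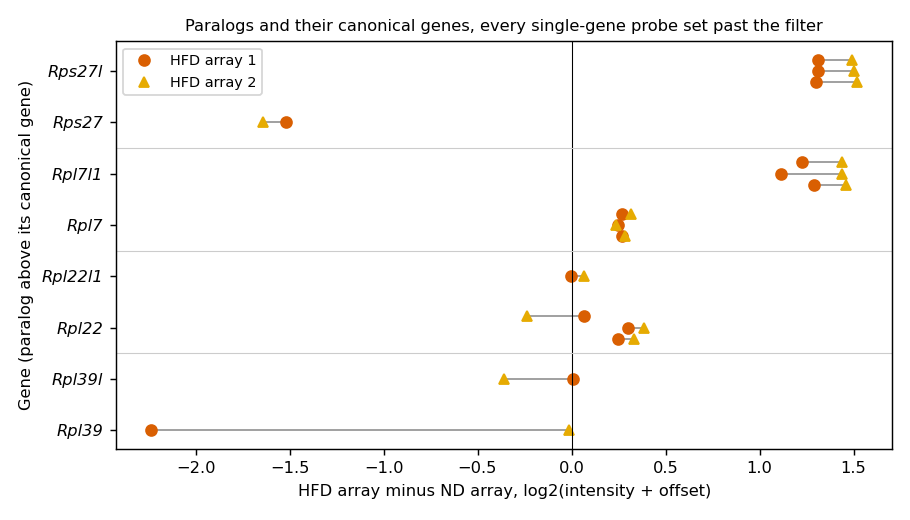
Difference of each HFD array from the ND array on the log2(intensity + offset) scale for every single-gene probe set past the filter, with each paralog above its canonical gene. Rps27l and Rpl7l1 lie at 1.1 to 1.5 on all their probe sets, Rpl7 and the bright probe sets of Rpl22 at 0.2 to 0.4, and the 2 HFD arrays lie furthest apart for the probe sets of Rpl39 and Rpl39l.

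The other paralogs did not follow this pattern. Rpl22l1, which can replace Rpl22 in ribosomes of mice that lack Rpl22, read 14676 and 15398 in HFD and 14712 in ND (log2 0.03 ± 0.08, adjusted p = 0.76). The HFD values lay on either side of ND, and under quantile normalization the gene was called lower (log2 -0.19, adjusted p = 0.027). Rpl39l, a paralog known from testis, read 182 and 137 in HFD and 181 in ND (log2 -0.18 ± 0.26, adjusted p = 0.60). Rpl3l, a muscle paralog, read 6.56 and 3.53 in HFD and 10.0 in ND, and Rps4l 24.1 and 64.9 in HFD and 58.5 in ND, and neither passed the filter. Rps4x, the X-linked canonical gene beside Rps4l, rose 1.15-fold, with 44284 and 43295 in HFD and 38210 in ND (log2 0.20 ± 0.06, adjusted p = 0.015).

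Several of the members that stood apart were measured only by a dim probe set, while a brighter probe set was annotated to the same gene together with pseudogenes or near copies. Rps27 fell 2.99-fold on its single-gene probe set, with 622 and 570 in HFD, against 1818 in ND (log2 -1.58 ± 0.14, adjusted p = 2.3e-06). The probe set annotated to Rps27 and Rps27rt together read 32681 and 33981 in HFD and 34887 in ND, a log2 difference of -0.07. Rps25, which is needed for translation from some viral internal entry sites, rose 2.64-fold on its single-gene probe set, with 4245 and 4571 in HFD, against 1659 in ND (log2 1.40 ± 0.11, adjusted p = 7.5e-07). The probe set annotated to Rps25 and 2 Gm loci read 29073 and 28757 in HFD and 23746 in ND, a log2 difference of 0.28. For both genes the brighter probe set lay within the range of the bright members or just below 0, and the dim one did not.

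Single-gene and shared probe sets also differed for other members. Rps6, the substrate of S6 kinase, fell 1.41-fold on its single-gene probe set, with 1848 and 1657 in HFD, against 2479 in ND (log2 -0.50 ± 0.13, adjusted p = 0.0054). The brightest of 9 probe sets annotated to Rps6 and Rps6-ps4 together read 44451 and 42799 in HFD and 39887 in ND, a difference of 0.13, and the 9 ranged from -0.50 to 0.38. Rpl14 rose 1.77-fold, with 644 and 803 in HFD, against 399 in ND (log2 0.82 ± 0.17, adjusted p = 0.0015). All 5 probe sets annotated to Rpl14 and Rpl14-ps1 lay above 0, at 0.37 to 0.50, the brightest reading 34572 and 34262 in HFD and 26041 in ND. Rpl12 rose 1.33-fold, with 1936 and 1858 in HFD, against 1426 in ND (adjusted p = 0.015), and its brightest shared probe set differed by 0.10. Rpl27a read 999 and 836 in HFD and 984 in ND (log2 -0.10 ± 0.15, adjusted p = 0.59), and its shared probe set differed by 0.15. Rpl39 read 56.9 and 330 in HFD and 333 in ND (log2 -1.13 ± 0.59, adjusted p = 0.13), so that a single HFD array made the difference, and its shared probe set read 42444 and 39832 in HFD and 39456 in ND, a difference of 0.06. Which transcripts a shared probe set measured cannot be told apart, and the reason for the gap between the 2 kinds of probe set was not tested.

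**Figure D4:**
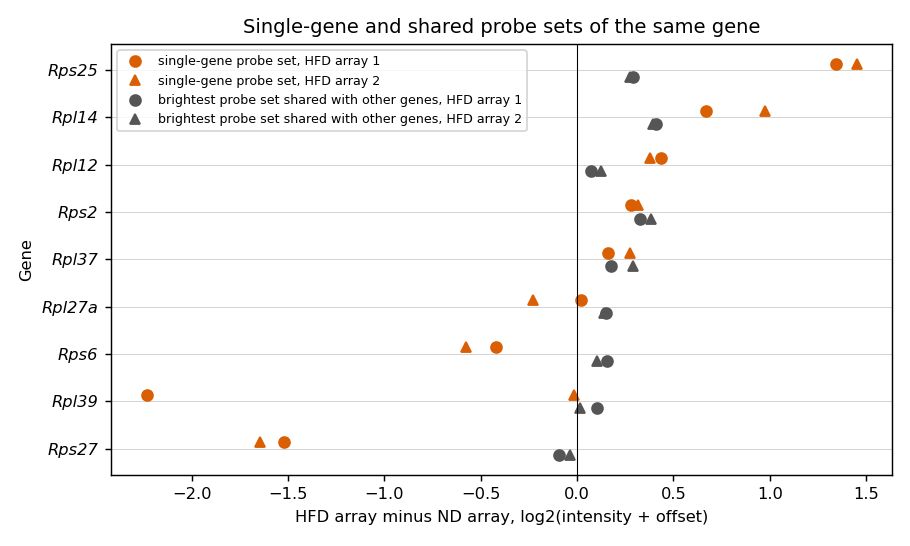
Difference of each HFD array from the ND array on the log2(intensity + offset) scale for the 9 members past the filter whose brightest probe set is shared with other genes, with the single-gene probe set (orange) and the brightest shared one (grey). The shared probe sets lie between -0.1 and 0.5, while the single-gene ones spread from -2.2 to 1.5.

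Taking for each gene the brightest probe set of either kind, a comparison added after the data were seen, gave 46 genes, 10 of them on a shared probe set. Both HFD arrays then lay above ND for 43 of the 46 and below for 1, Rps27. On single-gene probe sets, 35.8% of all genes tested lay above on both and 54.7% below. The median difference was 0.16, and 2 genes, Rps27l and Rpl7l1, lay at least 1.5-fold above ND in both HFD arrays, and 0 below. Across the array, 110 probe sets were annotated to a ribosomal protein gene and to other loci. Of the 79 with a mean intensity over 10000, 77 lay above ND on both HFD arrays, with a median of 0.16 and a range of -0.07 to 0.62. Among genes outside the family, on their brightest single-gene probe set, 137 of 216 with a mean of 10000 to 20000 did so. Over 20000 it was 31 of 56. The 26 dimmer ones past the filter ranged from -0.81 to 0.80. Gene names outside the 48 members were not assigned from these.

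Of 65 single-gene probe sets of members with a mean over 10000, 61 lay above ND on both HFD arrays, with a median of 0.17 and a range of -0.11 to 0.47. Other genes, counted once each, did so in 137 of 216 cases at a mean of 10000 to 20000 and 31 of 56 over 20000. Of the 20 genes with several probe sets past the filter, 5 had probe sets of opposite sign, namely Rpl13a, Rpl22, Rps14, Rps15 and Rps20. Rps15 rose 1.17-fold on its brightest probe set (32296 and 32574 in HFD, against 27651 in ND; adjusted p = 0.0094), while the other read 22071 and 23186 in HFD and 24432 in ND, a difference of -0.11. Rpl13a, which also serves in a complex that silences translation in human myeloid cells, gave 0.08 on its brightest probe set and -0.06, 0.27 and 0.58 on the others. Rps20 rose on its brightest probe set (40741 and 41508 in HFD, against 35505 in ND; log2 0.21 ± 0.06, adjusted p = 0.011), with 0.23 on a further bright one and -0.53 and -0.14 on 2 dim ones. There were 11 dim probe sets past the filter, with a mean up to 1000, that belonged to genes with a brighter one. Of these, 6 lay at least 1 log2 unit above ND. The filter, a mean over 71.4, includes the HFD arrays, so high HFD values could carry a probe set past it. Among the 6, a probe set of Rpl35 read 93.5 and 107 in HFD and 17.8 in ND. Another, of Rps18, read 156 and 229 in HFD and 35.6 in ND. The rest of the 6 read 78.9 or more in ND. The share of all dim probe sets with such a rise was not tested. A dim probe set of Rps24 read 859 and 1052 in HFD and 168 in ND, a difference of 2.38, while its brightest read 40107 and 39928 in HFD and 36625 in ND (log2 0.13 ± 0.06, adjusted p = 0.095).

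Of the 3 members under the filter, Rps16 had a single-gene probe set at 1.18 and 4.92 in HFD and 0.80 in ND. The other probe sets annotated to Rps16 are shared with pseudogenes.

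Assembly factors and translation factors had larger median differences than the 0.19 of the ribosomal proteins. All 36 measured of 37 listed nucleolar assembly factors rose, with a median of 1.54, against 20.5% of all genes called higher. This list and those of the next paragraph were chosen with earlier results of these data known, so their counts are descriptions and not tests. Nolc1, a chaperone of small nucleolar particles, read 6073 and 7377 in HFD, against 1151 in ND (5.74-fold, adjusted p = 1.4e-08). Rrp9 and Nop58, components of small nucleolar particles, rose 5.30-fold each, and Nop16 rose 5.25-fold. Both HFD values lay above ND for these genes, which held for 35.8% of all genes tested. The smallest rise in the list was that of Bop1, at 1.42-fold (1059 and 1026 in HFD, against 731 in ND, adjusted p = 0.0092).

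Of 11 measured elongation and termination factors, 9 rose (20.5% of all genes did), with a median of 0.76. Eef1e1, a scaffold of the aminoacyl-tRNA synthetase complex, rose 3.84-fold (6511 and 8239 in HFD, against 1894 in ND), and the termination factor genes Gspt1 and Etf1 rose 2.85-fold and 2.09-fold. Eef1a1, the most abundant elongation factor, read 44085 and 44064 in HFD and 41235 in ND (log2 0.10 ± 0.06, adjusted p = 0.19), a difference like that of the bright ribosomal proteins. Of 6 measured ribosomal proteins outside the name pattern and ribosome-bound factors, 3 rose, against the same 20.5% of all genes. The ribosomal proteins among them, Fau and Rps3a1, differed by 0.04 and 0.06 (adjusted p = 0.65 and 0.44), while Btf3 and Naca, the chains of the nascent polypeptide-associated complex, rose 1.64-fold and 1.38-fold, and Serbp1, which binds idle ribosomes, rose 1.61-fold. Of 14 measured regulators of ribosomal protein synthesis, 4 rose and 3 fell, against 20.5% and 29.2% of all genes. Myc, which drives transcription of ribosome genes, read 4629 and 5008 in HFD, against 777 in ND (6.08-fold, adjusted p = 5.8e-09), Eif4ebp1 rose 3.74-fold, and Larp1, which binds the TOP element, rose 2.10-fold. Mxd4, an antagonist of Myc, fell by 1.09 on the log2 scale, Tsc1, an inhibitor of mTORC1, by 0.50 and Mdm2 by 0.49, and Mtor itself read 1299 and 1265 in HFD and 1135 in ND (adjusted p = 0.29).

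The calls were made with 1 ND array. The fit took its spread from the HFD arrays, on the assumption that ND samples would vary as much, and an exact permutation test of 2 arrays against 1 could not give a p below 0.333. Diet cannot be told apart from any other difference between the ND sample and the HFD samples. The number of members called higher also depended on the variance model. Without a trend of variance with intensity it was 4 of 45 (Rpl14, Rpl7l1, Rps25 and Rps27l), against 16.0% of all genes. With no filter on low values it was 5 of 48, the same 4 and Rpl12, against 9.14% of all genes. Rps27 was called lower under each of the 9 other settings of the fit, and Rps6 under all but the fit without a variance trend (adjusted p = 0.055).

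**Figure D5:**
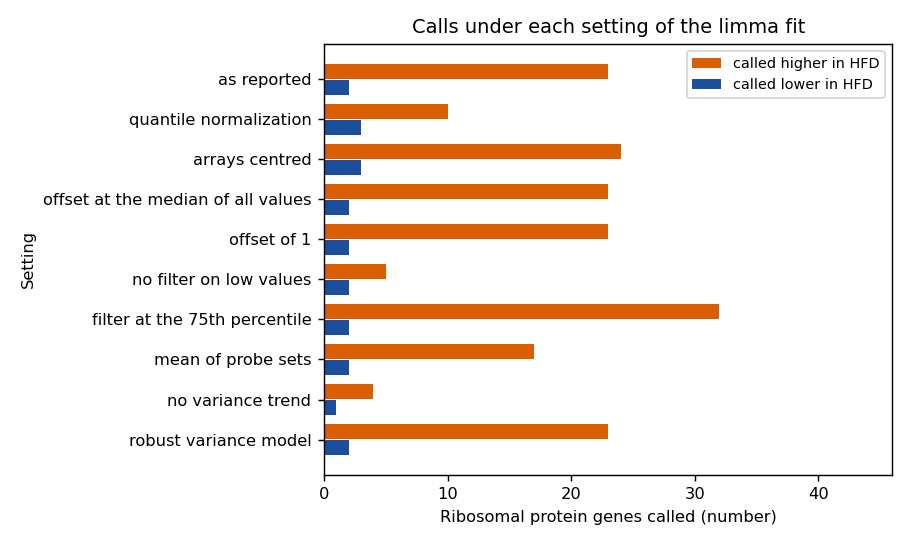
Number of ribosomal protein genes called higher (orange) and lower (blue) in HFD under each setting of the limma fit, with the reported setting at the top. The higher count runs from 4 to 32, and the lower count from 1 to 3.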

How the data were processed

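RNA was measured on 3 Affymetrix mouse arrays, 2 HFD and 1 ND. The authors deposited a linear intensity per probe set, and GCOS, Affymetrix's array software, is named per the submitters' processing notes. Its algorithm and version are not stated. The deposited values have a mean of 500.0 on every array once 2% of probe sets are trimmed at each end, so each value is relative to that trimmed mean of its own array. Without detection calls, dim values may hold no signal over background.

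After 64 controls were set apart, 34945 of 45037 probe sets had 1 gene symbol, 932 had several and 9160 had none. Entrez identifiers of 34741 matched the RefSeq gene table of GRCm38.p6, with 0 symbols changed. Genes entered where their brightest probe set had a mean over 71.4, which is the median of probe set means, and log2(intensity + 17.7) was fitted with limma 3.58.1 (eBayes with a trend; 1 residual and 11.69 prior degrees of freedom) in R 4.3.3, two-sided. On simulated data for HFD against ND over 10341 genes, with 100 changed by each size, the fit recovered 79% of log2 changes of 1 and 96% of changes of 2, and called 10 unchanged genes. The simulation did not cover changes as small as those of most members.

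The members and lists were chosen with earlier results of these data known. Named members were the 10 called genes furthest higher and all called lower, paralogs with their canonical genes, stalk proteins and Rpsa, the 5 brightest, the 5 nearest to the median of all genes and those with probe sets of opposite sign. Further members were named to account for every gene, after values were seen. The intensity ranges used in the text were set after the data were seen. Tables and figures were made with pandas 2.3.3, numpy 2.4.6 and matplotlib 3.10.9 in Python 3.11.15. No normalization was added in the reported fit, and the alternatives tried are given in the closing section.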

Additional observations from a re-analysis of the deposited data

How the results depend on the processing

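The 23 members called higher became 10 under quantile normalization, 5 with no filter on low values and 4 without a variance trend. The share of all genes called higher was 20.5% in the reported fit, and 22.3%, 9.14% and 16.0% in these 3 settings. The 2 members called lower became 1 without a variance trend, where 21.4% of all genes were called lower. In each of these settings the members called higher were among the 23. The median relative to all genes, 0.34, was 0.12 under quantile normalization, 0.27 with no filter, 0.29 when only probe sets over the 75th percentile were kept, 0.30 without HFD replicate 2, 0.33 without HFD replicate 1 and 0.32 with the brightest probe set of either kind, an alternative added after the data were seen. With that alternative 2 members were at least 1.5-fold higher and 0 lower, against 4 and 1. Leaving out an HFD array gave 4 higher in each case and 1 or 2 lower, the second being Rpl39 on HFD array 1. Signs turned under quantile normalization for 10 members, at -0.19 to -0.0088. These were Rpl8, Rpl19, Rpl41, Rps10, Rps24, Rpl22l1 (-0.19), Rplp2 (-0.0088), Rps9 (-0.093), Rpl37a (-0.064) and Rps14 (-0.038). With probe sets averaged the signs of Rps20 (-0.055) and Rps3 turned. With arrays centred 24 were called higher and 3 lower, including Rpl39 (log2 -1.06), and with the stricter filter, which left Rpl39 untested, 32 and 2. Of all genes, 23.3% were called higher and 26.1% lower with arrays centred, and 28.7% and 35.5% with the stricter filter. The causes were not tested. With either HFD array left out, calls could not be remade, since no residual degree of freedom is left. No paired analysis was possible because the ND group has 1 array and its label carries no number. Detection over background limits the dim probe sets.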
